A study of Homo sapiens with 6 samples.

Results

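The protein kinases that drive entry into mitosis and guard chromosome segregation were followed across breast cancer cells that over-express a transfer RNA (tRNA). The group held 10 genes: PLK1, AURKA, NEK2, CDK1, MASTL, PKMYT1, AURKB, BUB1, BUB1B and TTK. A probe annotated to one of these genes counted if its detection p was below 0.01 on 2 or more of the 6 arrays. This gave 15 probes, out of 18106 probes that passed the same filter and 47323 on the array. Of the 10877 named genes that remained, the 10 kinases are described here. The filter removed no member, since all 15 probes were listed with a detection p of 0 on all 6 arrays.

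RNA was taken from MDA-MB-231, a long-established human cell line of triple-negative breast cancer. Stable lines over-expressing tRNA-Glu (locus chr1.trna5, anticodon TTC) or tRNA-Arg (locus chr16.trna1, anticodon CCG) were set against mock-transfected control cells. Each of these 3 groups had 2 Illumina BeadChip arrays of biotin-labelled total RNA. The labels give no promoter or vector for the tRNA genes and do not say whether a stable line was 1 clone or a pool. Whether both arrays of a group stem from separate cultures is not stated either, so p-values reflect the spread between arrays alone, and that spread may be technical. No probe was annotated to a nuclear tRNA gene, so the over-expression itself was not checked on these arrays.

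Mitotic kinases act in a relay. CDK1, bound to cyclin B, triggers entry into mitosis, and it is held back by the inhibitory kinases PKMYT1 and WEE1 and released by CDC25 phosphatases. PLK1 and AURKA mature the centrosomes and build the spindle, NEK2 splits the centrosomes, and MASTL (Greatwall) keeps the opposing phosphatase PP2A-B55 in check. AURKB corrects faulty attachments of chromosomes, while BUB1, BUB1B (BubR1) and TTK (MPS1) run the checkpoint that delays anaphase. Many of these genes are transcribed mainly late in the cell cycle, through promoter elements known as the CHR and the CCAAT box bound by NF-Y.

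Promoter windows of these genes are shown as background. RefSeq windows (GRCh38.p14) ran from 250 bases before the annotated start to 50 after it and were at hand for 7 of the 10 genes. No window is shown for AURKA, TTK and PKMYT1. Each sequence is given 5′ to 3′ on the gene's own strand. Capitals mark matches to TTTGAA (the CHR core), CCAAT (the NF-Y box) and GGGCGG (the GC box) or to their reverse complements.
PLK1, chr16:23678639-23678938, plus strand: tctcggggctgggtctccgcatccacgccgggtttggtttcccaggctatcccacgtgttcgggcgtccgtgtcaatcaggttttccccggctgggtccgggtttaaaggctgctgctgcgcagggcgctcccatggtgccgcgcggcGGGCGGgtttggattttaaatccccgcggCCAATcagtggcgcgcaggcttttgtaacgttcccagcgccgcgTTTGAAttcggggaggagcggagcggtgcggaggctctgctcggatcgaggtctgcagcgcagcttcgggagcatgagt
BUB1B, chr15:40160819-40161118, plus strand: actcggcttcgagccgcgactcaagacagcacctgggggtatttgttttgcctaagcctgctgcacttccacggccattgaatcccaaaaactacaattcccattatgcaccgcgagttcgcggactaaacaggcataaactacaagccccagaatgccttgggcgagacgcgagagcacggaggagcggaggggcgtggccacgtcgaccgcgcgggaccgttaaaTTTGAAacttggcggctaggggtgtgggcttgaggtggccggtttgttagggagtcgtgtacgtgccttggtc
NEK2, chr1:211675572-211675871, minus strand: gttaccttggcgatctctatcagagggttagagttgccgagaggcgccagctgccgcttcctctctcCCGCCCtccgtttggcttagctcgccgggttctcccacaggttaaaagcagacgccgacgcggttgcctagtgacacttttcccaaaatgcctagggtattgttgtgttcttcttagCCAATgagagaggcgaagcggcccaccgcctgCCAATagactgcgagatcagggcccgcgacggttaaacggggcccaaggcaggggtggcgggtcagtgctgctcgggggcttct
CDK1, chr10:60778081-60778380, plus strand: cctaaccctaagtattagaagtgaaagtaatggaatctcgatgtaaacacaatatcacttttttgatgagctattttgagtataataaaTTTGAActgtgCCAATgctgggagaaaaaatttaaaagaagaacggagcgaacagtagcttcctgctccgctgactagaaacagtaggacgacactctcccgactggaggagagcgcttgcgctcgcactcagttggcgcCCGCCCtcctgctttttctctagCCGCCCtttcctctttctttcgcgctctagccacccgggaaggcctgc

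The PLK1 window held TTTGAA 29 bases upstream of the start, CCAAT 73 bases upstream and GGGCGG 102 bases upstream. In the BUB1B window, TTTGAA lay 23 bases upstream, and neither of the other motifs was found. NEK2 had CCAAT at 66 and 34 bases upstream and no TTTGAA. CDK1 has a pair of annotated windows, and in the one printed TTTGAA lay 161 bases and CCAAT 150 bases upstream. The other CDK1 window held TTTGAA 69 and 13 bases upstream and 9 bases after the start, and CCAAT 78 and 46 bases upstream. The motifs were searched on both strands, and none of them overlaps another in these windows. TTTGAA was present in 4 of the 7 genes (PLK1, BUB1B, CDK1 and MASTL), against 15.2% of 35116 RefSeq promoter windows of the same length. CCAAT was present in 5 of 7 (PLK1, AURKB, BUB1, NEK2 and CDK1), against 34.6% of all windows. GGGCGG was present in 5 of 7 (PLK1, AURKB, NEK2, CDK1 and MASTL), against 45% of all windows. A match describes the letters and is not evidence of a bound site. TTTGAA was found in PLK1 and BUB1B, which rose in both lines below, and in CDK1 and MASTL, which did not. CCAAT was found in CDK1 as well as in kinases that rose. Whether the motifs bear on the changes below was not tested.

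**Figure D1:**
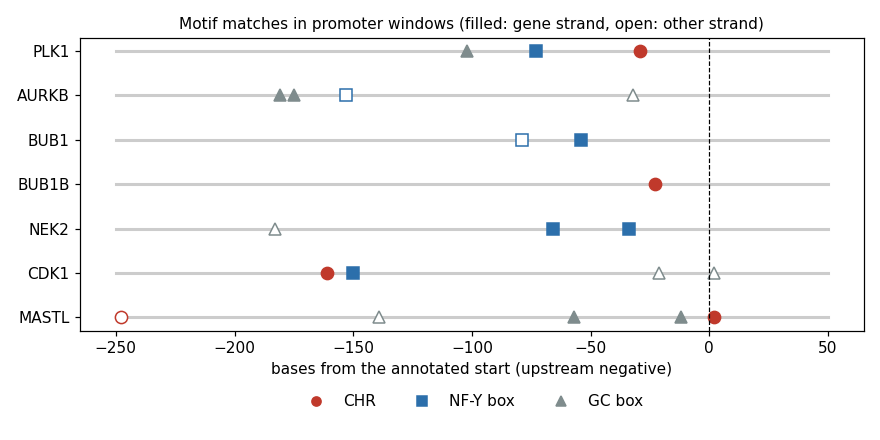
Positions of the 3 motifs in the promoter windows of the kinase genes, as the distance in bases from the annotated start, on either strand. Only the first window of a gene is drawn. PLK1 and BUB1B carry TTTGAA 29 and 23 bases upstream of the start, and CDK1 carries it 161 bases upstream in the window drawn.

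Values below are log2 of background-corrected and quantile-normalized intensity, and levels of different genes are not compared with each other. The arrays had mean deposited intensities of 250.6 to 331.3 and detected 16650 to 17704 probes at a detection p under 0.01. Of the markers that MDA-MB-231 is known to express, VIM, CD44, CAV1, AXL and SPARC, 5 of 5 were detected on every array. ESR1, PGR and CDH1, which the line is known to lack, were detected on none, while ERBB2 and EPCAM were detected on all 6. Of the blood cell markers with a probe, CD68 and LAPTM5 were detected on all 6 arrays, and PTPRC, CD3E and HBB on none. The summed deposited intensity of the 5 blood markers moved with the groups, at 3589.5 to 4350.4 in the tRNA-Glu line, 2688.9 to 2881.5 in the tRNA-Arg line and 1470.8 to 1721.1 in control cells. CD68 made up most of this sum, with group means of 3015.5, 2192.25 and 1173.3 in the same order. LAPTM5 made up most of the rest, at 833.15, 472.95 and 304.35. The fibroblast markers PDGFRA, PDGFRB and LUM were detected on no array, and DCN on 1.

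In both over-expression lines, the kinases of spindle building, centrosome separation and the checkpoint were higher than in control cells, while CDK1 and MASTL were not. Calls were made at an adjusted p below 0.05 by limma with Benjamini-Hochberg adjustment over all 18106 probes, and each gene was read from its brightest probe. In the tRNA-Glu line 8 of the 10 genes were called higher and 2 lower, where 30.3% of all genes were called higher and 26.5% lower. Against the same control, 7 of 10 in the tRNA-Arg line were called higher and the other 3 were not called, where 20.4% of all genes were called higher and 22.2% lower. A rise of at least 2-fold was called for 6 of 10 genes (PLK1, AURKA, AURKB, BUB1, TTK and NEK2) in either line, against 4.04% of all genes in the tRNA-Glu line and 2.88% in the tRNA-Arg line. By probes, 10 of 15 were called higher and 3 lower in the tRNA-Glu line, against 26.7% and 27% of all probes. Of the same probes 9 were called higher in the tRNA-Arg line, against 19.2% of all probes higher and 20.4% lower. The median log2 difference over the 15 probes was 1.05 in the tRNA-Glu line and 1.21 in the tRNA-Arg line, against 0.01 and -0.01 over all probes. Both comparisons share the 2 control arrays, so they are not independent of each other. The kinases and the partner lists below were chosen with earlier results of these data known. Their shares beside those of all genes are therefore descriptive. In bulk RNA, more cells in mitosis and more RNA per cell cannot be told apart. Nor can an effect of the tRNAs be told apart from a difference of the stable lines or of the control cells.

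The direction is taken from the array labels. The authors' deposited table of fold changes states neither its direction nor its log base, and its signs were the reverse of those here. From the authors' processed intensities of the labelled arrays, PLK1 and AURKA were higher in both lines, as here. For all 10 kinases (CDK1 stands there under its older symbol CDC2) the sign in the authors' deposited table was opposite to line minus control here, in both lines. Over the genes with a difference of at least 2-fold here, 712 of 717 (99.3%) in the tRNA-Glu line and 410 of 411 (99.8%) in the tRNA-Arg line had the opposite sign in the authors' deposited table.

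**Figure D2:**
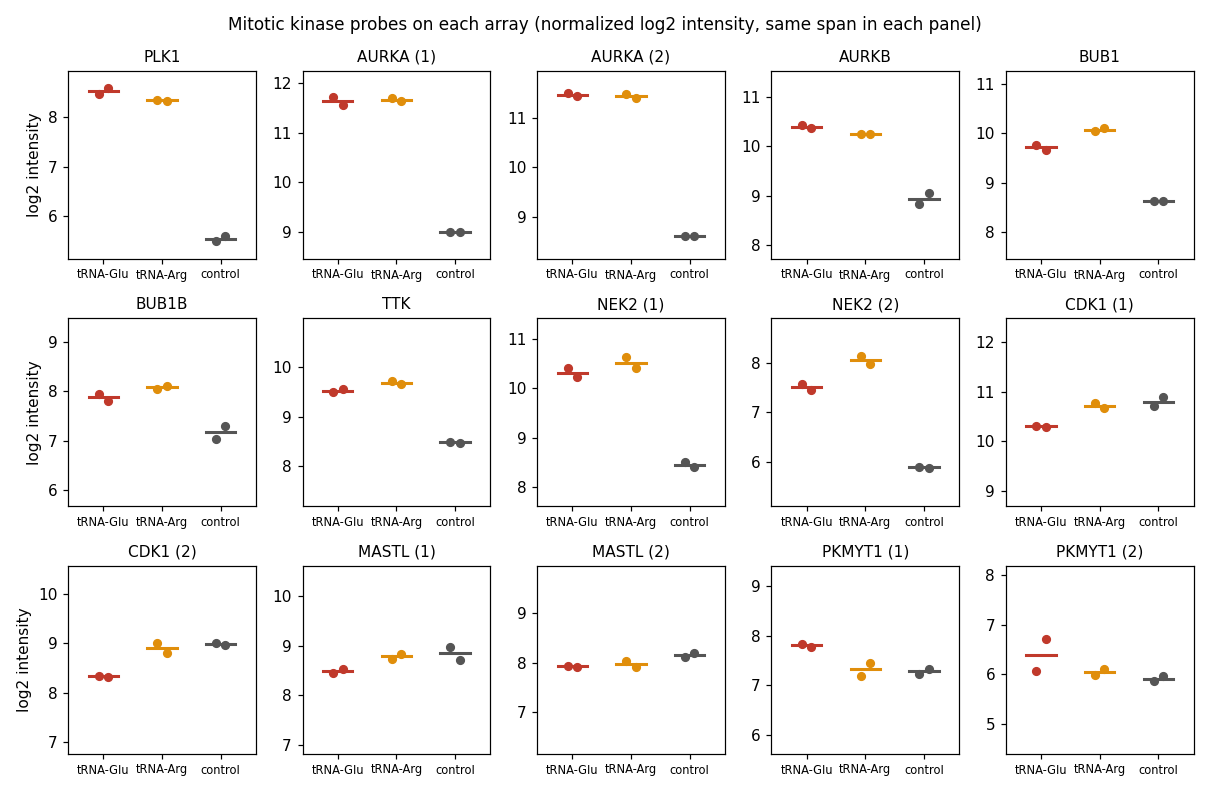
Normalized log2 intensity of each of the 15 kinase probes on the 6 arrays, with the tRNA-Glu line, the tRNA-Arg line and control cells side by side; points are arrays and bars are group means. PLK1 sits between 8.33 and 8.59 in the lines and at 5.50 and 5.61 in control cells, while the groups overlap for CDK1 in the tRNA-Arg line.

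PLK1, the polo-like kinase of centrosome maturation and cytokinesis, was among the largest rises of the kinases, beside AURKA. Its log2 intensity was 8.47 and 8.59 in the tRNA-Glu line, 8.35 and 8.33 in the tRNA-Arg line, and 5.50 and 5.61 in control cells. As deposited, before any normalization, these were intensities of 427.6 and 354.3 in the tRNA-Glu line, 343 and 374 in the tRNA-Arg line, and 64.9 and 74.7 in control cells. Every array of either line lay far above both control arrays. PLK1 was 7.88-fold higher in the tRNA-Glu line than in control cells (limma adjusted p = 1.03e-05), a log2 difference of 2.98 ± 0.09 (SE, n = 2 arrays in each group). The rise in the tRNA-Arg line was 6.92-fold (log2 difference 2.79 ± 0.09 SE, limma adjusted p = 1.42e-05). By size of the rise it stood 7th among the 18106 probes in the tRNA-Glu line and 9th in the tRNA-Arg line. Since its control signal was dim, the size depended on the offset added before the logarithm: with 50 in place of 16 the log2 difference was 2.32 in the tRNA-Glu line and 2.15 in the tRNA-Arg line. At that offset the AURKA probes stood above PLK1 in the tRNA-Glu line, at 2.57 and 2.75, so the order of the 2 genes depends on the processing.

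AURKA, the Aurora kinase of the spindle poles, rose by a similar amount on both of its probes. Its brighter probe measured 11.71 and 11.56 in the tRNA-Glu line, 11.69 and 11.64 in the tRNA-Arg line, and 8.98 and 8.99 in control cells. The dimmer probe measured 11.50 and 11.43 in the tRNA-Glu line, 11.48 and 11.40 in the tRNA-Arg line, and 8.60 and 8.62 in control cells. On neither probe did a line overlap with control, and the lines overlapped with each other. The brighter probe was 6.28-fold higher in the tRNA-Glu line (log2 difference 2.65 ± 0.09 SE, limma adjusted p = 1.03e-05) and 6.40-fold higher in the tRNA-Arg line (2.68, limma adjusted p = 1.42e-05). The dimmer probe gave 7.22-fold in the tRNA-Glu line and 7.10-fold in the tRNA-Arg line.

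NEK2, which separates the centrosomes before the spindle forms, was next in size. Its brighter probe measured 10.40 and 10.22 in the tRNA-Glu line, 10.63 and 10.40 in the tRNA-Arg line, and 8.50 and 8.40 in control cells. The dimmer probe measured 7.57 and 7.45 in the tRNA-Glu line, 8.13 and 7.97 in the tRNA-Arg line, and 5.90 and 5.87 in control cells. Both lines were clear of control on both probes. The brighter probe was 3.63-fold higher in the tRNA-Glu line (log2 difference 1.86 ± 0.11 SE, limma adjusted p = 5.33e-05) and 4.18-fold higher in the tRNA-Arg line (2.06, limma adjusted p = 5.17e-05). The dimmer probe was 3.08-fold higher in the tRNA-Glu line and 4.48-fold higher in the tRNA-Arg line.

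AURKB, the catalytic subunit of the chromosomal passenger complex, rose less than AURKA in fold. It measured 10.42 and 10.37 in the tRNA-Glu line, 10.25 and 10.25 in the tRNA-Arg line, and 8.83 and 9.06 in control cells, with no overlap between either line and control. The rise was 2.73-fold in the tRNA-Glu line (log2 difference 1.45 ± 0.10 SE, limma adjusted p = 7.4e-05) and 2.47-fold in the tRNA-Arg line (1.30, limma adjusted p = 0.000195).

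The checkpoint kinases rose by smaller amounts. BUB1, which marks kinetochores for checkpoint proteins and for shugoshin, measured 9.77 and 9.67 in the tRNA-Glu line, 10.05 and 10.11 in the tRNA-Arg line, and 8.63 and 8.64 in control cells. It was 2.12-fold higher in the tRNA-Glu line (log2 difference 1.09 ± 0.08 SE, limma adjusted p = 0.000107) and 2.72-fold higher in the tRNA-Arg line (1.45, limma adjusted p = 6.52e-05). All 3 groups were apart from each other for this gene. TTK, the kinase that starts checkpoint signalling at unattached kinetochores, measured 9.50 and 9.56 in the tRNA-Glu line, 9.72 and 9.67 in the tRNA-Arg line, and 8.50 and 8.47 in control cells. Its rise was 2.07-fold in the tRNA-Glu line (limma adjusted p = 0.000107) and 2.31-fold in the tRNA-Arg line (limma adjusted p = 0.000116). BUB1B, the pseudokinase subunit of the checkpoint complex that restrains the anaphase-promoting complex, had the smallest rise of the 7 kinases that rose in both lines. It measured 7.94 and 7.81 in the tRNA-Glu line, 8.04 and 8.11 in the tRNA-Arg line, and 7.03 and 7.30 in control cells. This was 1.63-fold higher in the tRNA-Glu line (log2 difference 0.70 ± 0.11 SE, limma adjusted p = 0.00189) and 1.87-fold higher in the tRNA-Arg line (0.91, limma adjusted p = 0.0012), again without overlap.

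CDK1, the kinase at the head of the relay, fell in the tRNA-Glu line and was not called in the tRNA-Arg line. Its brighter probe measured 10.31 and 10.28 in the tRNA-Glu line, 10.76 and 10.67 in the tRNA-Arg line, and 10.71 and 10.88 in control cells. The dimmer probe measured 8.33 on both arrays of the tRNA-Glu line, 9.002 and 8.80 in the tRNA-Arg line, and 9.003 and 8.97 in control cells. The tRNA-Glu arrays lay below all others on both probes, and the tRNA-Arg arrays overlapped with control. In the tRNA-Glu line the log2 difference was -0.50 ± 0.09 SE on the brighter probe (limma adjusted p = 0.0037) and -0.66 ± 0.09 SE on the dimmer probe (limma adjusted p = 0.00116). The call of the brighter probe was lost with median scaling (-0.35, limma adjusted p = 0.174), while the dimmer probe was called under all 13 alternative settings. In the tRNA-Arg line the differences were -0.08 on each probe, with limma adjusted p-values of 0.529 and 0.508.

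MASTL, the Greatwall kinase, was lower in the tRNA-Glu line on 1 of its 2 probes. The brighter probe measured 8.46 and 8.54 in the tRNA-Glu line, 8.74 and 8.83 in the tRNA-Arg line, and 8.97 and 8.72 in control cells. The dimmer probe measured 7.93 and 7.92 in the tRNA-Glu line, 8.03 and 7.92 in the tRNA-Arg line, and 8.11 and 8.20 in control cells. The tRNA-Glu arrays lay below the control arrays on both probes. On the brighter probe the log2 difference was -0.35 ± 0.11 SE (limma adjusted p = 0.0286), and on the dimmer probe it was -0.23 ± 0.09 SE (limma adjusted p = 0.0571). The call on the brighter probe was lost with median scaling (-0.31, limma adjusted p = 0.236), with no filter on dim probes (limma adjusted p = 0.0618), without tRNA-Glu replicate 1 (-0.31, limma adjusted p = 0.115), without tRNA-Glu replicate 2 (-0.39, limma adjusted p = 0.0654) and without control replicate 1 (-0.22, limma adjusted p = 0.139). The dimmer probe was called with cyclic loess (limma adjusted p = 0.0386), without background correction (0.0441), at offset 50 (0.035) and over probes detected on all 6 arrays (0.0388). In the tRNA-Arg line neither probe was called, at -0.06 (limma adjusted p = 0.682) and -0.18 (limma adjusted p = 0.136).

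PKMYT1, the membrane-bound kinase that inhibits CDK1, was higher in the tRNA-Glu line on its brighter probe. That probe measured 7.84 and 7.77 in the tRNA-Glu line, 7.19 and 7.45 in the tRNA-Arg line, and 7.22 and 7.33 in control cells. The tRNA-Glu arrays were above all others, and the tRNA-Arg arrays spanned the control values. The difference was 1.44-fold in the tRNA-Glu line (log2 difference 0.52 ± 0.11 SE, limma adjusted p = 0.00594) and 0.04 on the log2 scale in the tRNA-Arg line (limma adjusted p = 0.794). The dimmer probe was uneven between the tRNA-Glu arrays, at 6.06 and 6.72, against 5.98 and 6.11 in the tRNA-Arg line and 5.86 and 5.96 in control cells. It was not called in the tRNA-Glu line (log2 difference 0.48 ± 0.20 SE, limma adjusted p = 0.0774), and it was called in 6 of the 13 alternative settings. Its value was 0.81 without tRNA-Glu replicate 1 and 0.15 without tRNA-Glu replicate 2.

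**Figure D3:**
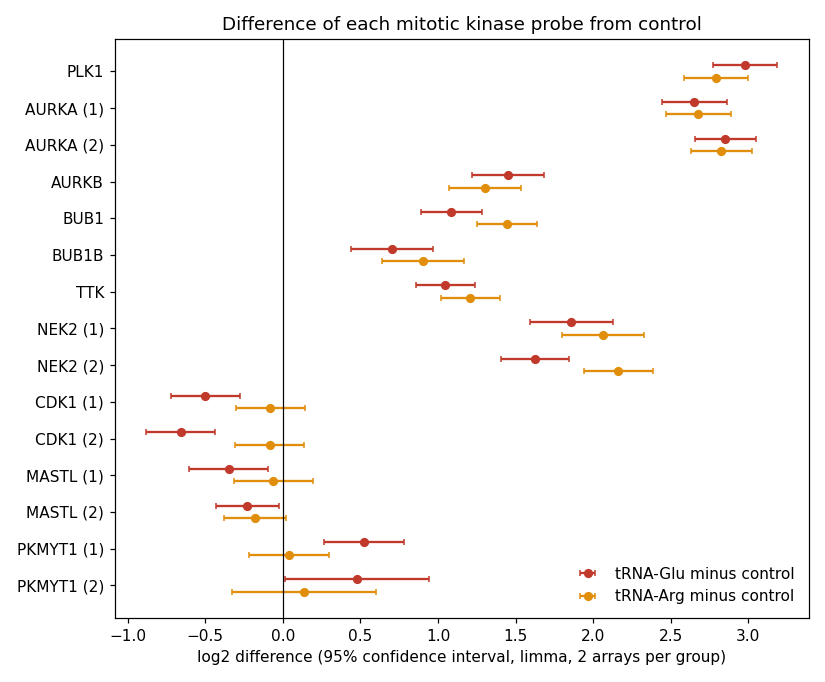
Log2 difference from control cells for each kinase probe in either over-expression line, with 95% confidence intervals of the limma fit. PLK1 and AURKA lie between 2.65 and 2.98 in both lines, and CDK1 and MASTL lie below 0.

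Over the 15 probes, both tRNA-Glu arrays lay above both control arrays for 11 and below them for 4, where 39% of all probes lay wholly above and 38.2% wholly below. For the tRNA-Arg line 10 probes lay wholly above, 1 below and 4 overlapped, where 34.5% of all probes lay wholly above and 36.8% below. With 2 arrays against 2, the smallest two-sided p of an exact permutation test is 0.333, so the calls rest on the spread that limma shares across probes.

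The lines were also compared with each other in the same fit. Each tRNA is represented by 1 stable line, so a difference due to the tRNA and one due to the line cannot be told apart. The largest rises, those of PLK1 and AURKA, did not differ detectably between the lines. PLK1 differed by 0.19 on the log2 scale, tRNA-Glu minus tRNA-Arg (limma adjusted p = 0.14), and the AURKA probes by -0.03 and 0.03 (limma adjusted p = 0.831 and 0.835). Of the 10 genes, 1 was called higher and 2 lower in the tRNA-Glu line than in the tRNA-Arg line, where 21.7% of all genes were called higher and 16.5% lower, so these shares are near those of all genes. Counted by probe, 1 of 15 was called higher and 4 lower, against 18% and 17.8% of all probes. With median scaling the split of calls over all probes was 32.8% higher, against 50.3% with quantile normalization, so the balance of directions between the lines depends on the scaling. Both tRNA-Glu arrays lay above both tRNA-Arg arrays for 3 kinase probes and below them for 7, where 36.5% of all probes lay wholly above and 34.1% wholly below.

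CDK1 was lower in the tRNA-Glu line than in the tRNA-Arg line on both probes, with log2 differences of -0.42 (limma adjusted p = 0.0145) and -0.57 (limma adjusted p = 0.0055). BUB1 was lower by a log2 difference of -0.36 (limma adjusted p = 0.0164). The dimmer NEK2 probe was lower at -0.54 (limma adjusted p = 0.00645), while the brighter probe at -0.20 was not called (limma adjusted p = 0.198). PKMYT1 was the kinase higher in the tRNA-Glu line, at 0.48 on the brighter probe (limma adjusted p = 0.0151). Its dimmer probe, at 0.34, was not called (limma adjusted p = 0.213). The calls of BUB1, PKMYT1 and the brighter CDK1 probe were lost with median scaling (limma adjusted p = 0.231, 0.142 and 0.177). Their log2 differences there were of similar size, at -0.38, 0.45 and -0.42. BUB1 was also not called without tRNA-Glu replicate 2, tRNA-Arg replicate 1 or tRNA-Arg replicate 2, the brighter CDK1 probe without tRNA-Glu replicate 2 or tRNA-Arg replicate 1, and PKMYT1 without tRNA-Glu replicate 1, tRNA-Glu replicate 2 or tRNA-Arg replicate 1.

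**Figure D4:**
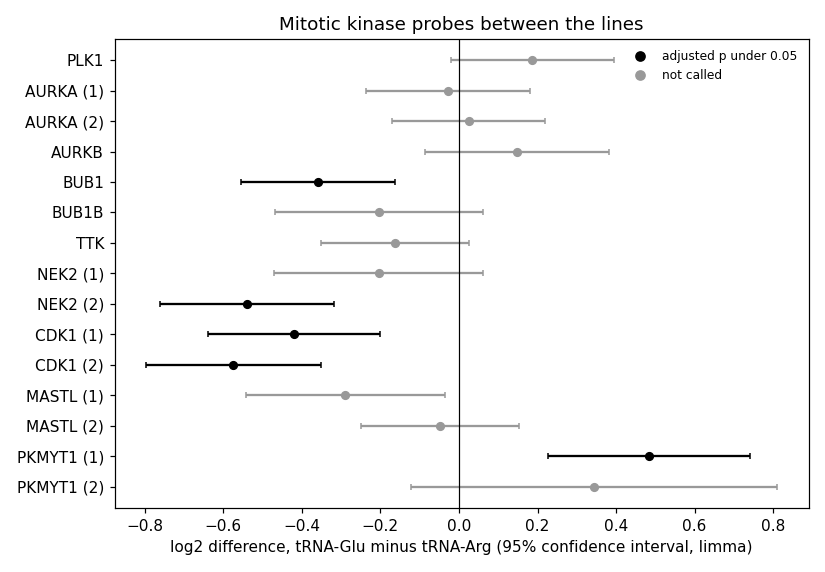
Log2 difference of each kinase probe between the lines, tRNA-Glu minus tRNA-Arg, with 95% confidence intervals of the limma fit. The CDK1 probes lie at -0.42 and -0.57 and the brighter PKMYT1 probe at 0.48, while AURKA lies at -0.03 and 0.03.

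Genes of proteins that switch these kinases on were mostly higher too. Of 20 activators and scaffolds measured, 13 were called higher and 2 lower in the tRNA-Glu line, against 30.3% of all genes higher and 26.5% lower, with a median log2 difference of 0.87 against 0.04 over all genes. For the tRNA-Arg line, 15 of 20 were called higher and 5 were not called, against 20.4% of all genes higher and 22.2% lower, with a median of 0.96 against -0.02 over all genes. CCNB1, the cyclin B1 partner of CDK1, measured 10.10 and 10.07 in the tRNA-Glu line, 10.12 and 10.17 in the tRNA-Arg line, and 7.88 and 7.75 in control cells. It was thus 4.82-fold higher in the tRNA-Glu line (limma adjusted p = 1.55e-05) and 5.02-fold higher in the tRNA-Arg line (limma adjusted p = 1.48e-05), in the same cells in which CDK1 was lower or not called. CCNB2, cyclin B2, was 4.34-fold higher in the tRNA-Glu line and 4.20-fold higher in the tRNA-Arg line. CDC25C, a phosphatase that releases CDK1, was 5.03-fold higher in the tRNA-Glu line (limma adjusted p = 2.3e-05) and 4.40-fold higher in the tRNA-Arg line (limma adjusted p = 3.29e-05).

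BORA, which with AURKA activates PLK1, measured 8.72 and 8.63 in the tRNA-Glu line, 9.04 and 9.18 in the tRNA-Arg line, and 6.94 and 6.95 in control cells. It was 3.31-fold higher in the tRNA-Glu line and 4.49-fold higher in the tRNA-Arg line. TPX2, which activates AURKA on spindle microtubules, was 1.95-fold higher in the tRNA-Glu line (limma adjusted p = 0.000205) and 2.39-fold higher in the tRNA-Arg line (limma adjusted p = 0.000145). The partners of AURKB in the passenger complex were also higher. CDCA8 (borealin) was 3.37-fold higher in the tRNA-Glu line and 3.69-fold higher in the tRNA-Arg line, BIRC5 (survivin) 3.12-fold and 2.18-fold, and INCENP 2.10-fold and 1.88-fold. The INCENP signal was dim, with deposited intensities of 50.6 and 46.1 in control cells, where the array medians were 43.8 to 46.2. The size of its fold is therefore uncertain. MAD2L1, the checkpoint protein that binds CDC20 and a gene singled out after its values were seen, fell in the tRNA-Glu line (log2 difference -0.41, limma adjusted p = 0.00581) and rose in the tRNA-Arg line (0.36, limma adjusted p = 0.0143). The difference between the lines was itself called, at -0.77 (limma adjusted p = 0.00203). With median scaling neither MAD2L1 call against control was made (limma adjusted p = 0.339 and 0.068).

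Among inhibitors of the kinases and the phosphatases that oppose them, the shares called were near those of all genes. Of 24 listed, 23 were measured, and 5 were called higher and 7 lower in the tRNA-Glu line, where 30.3% of all genes were higher and 26.5% lower, with a median log2 difference of -0.07. The counts in the tRNA-Arg line were 4 higher and 4 lower, where 20.4% of all genes were higher and 22.2% lower, with a median of 0.10. WEE1, the nuclear kinase that inhibits CDK1, measured 7.91 and 7.89 in the tRNA-Glu line, 8.64 and 8.56 in the tRNA-Arg line, and 9.16 and 9.07 in control cells. All 3 groups were apart, with WEE1 2.32-fold lower in the tRNA-Glu line than in control (limma adjusted p = 7.58e-05) and 1.43-fold lower in the tRNA-Arg line (limma adjusted p = 0.00341). The tRNA-Arg call of WEE1 was lost with median scaling (-0.43, limma adjusted p = 0.137). CDKN1A, the CDK inhibitor p21, was 1.91-fold higher in the tRNA-Glu line (limma adjusted p = 0.000168) and at a log2 difference of -0.01 in the tRNA-Arg line (limma adjusted p = 0.965). PPP2R5A, a B56 subunit of PP2A that counters mitotic kinases, was 1.88-fold higher in the tRNA-Glu line and 1.54-fold higher in the tRNA-Arg line. PPP1CB, a catalytic subunit of the phosphatase PP1, was 1.63-fold lower in the tRNA-Glu line and 1.41-fold lower in the tRNA-Arg line, where the call was lost with median scaling (limma adjusted p = 0.174). The 2 MASTL substrates, ARPP19 and ENSA, were also singled out after their values were seen. ARPP19, through which MASTL inhibits PP2A-B55, was 1.38-fold lower in the tRNA-Glu line and 1.22-fold lower in the tRNA-Arg line, and both calls were lost with median scaling (limma adjusted p = 0.185 and 0.68). ENSA, its close relative, was at -0.32 in the tRNA-Glu line (limma adjusted p = 0.0577) and was not called in either line, though another of its probes was called with the opposite sign in the tRNA-Arg line.

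The next list held other kinases of mitosis and the centrosome cycle. Of 16 listed, 13 were measured, and 5 were called higher and 2 lower in the tRNA-Glu line, against 30.3% of all genes higher and 26.5% lower, with a median log2 difference of 0.16. Those of the tRNA-Arg line gave 7 called higher and 6 not called, against 20.4% of all genes higher and 22.2% lower, with a median of 0.30. HASPIN, which phosphorylates histone H3 to place AURKB at centromeres, was 1.73-fold higher in the tRNA-Glu line and 1.76-fold higher in the tRNA-Arg line. NEK6, a relative of NEK2 that acts on the spindle, was 1.92-fold higher in the tRNA-Glu line and 1.77-fold higher in the tRNA-Arg line. NEK7, which acts with NEK6 on the spindle, was 2.71-fold lower in the tRNA-Glu line (limma adjusted p = 9.94e-05). In the tRNA-Arg line the same probe was at a log2 difference of 0.001 and was not called (limma adjusted p = 0.995). Another NEK7 probe was called lower in the tRNA-Arg line. PLK2, a polo-like kinase of G1 and stress responses, was 1.88-fold higher in the tRNA-Glu line and 2.03-fold higher in the tRNA-Arg line. PLK4, the kinase of centriole duplication, fell 1.32-fold in the tRNA-Glu line (limma adjusted p = 0.00648) and rose 1.23-fold in the tRNA-Arg line (limma adjusted p = 0.0301). Both PLK4 calls were lost with median scaling (limma adjusted p = 0.263 and 0.14). MELK, an embryonic leucine zipper kinase, at -0.10 in the tRNA-Glu line and 0.04 in the tRNA-Arg line, was not called in either. PBK, a mitotic MAPKK-like kinase, was 1.48-fold higher in the tRNA-Glu line and 1.66-fold higher in the tRNA-Arg line.

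Substrates and spindle partners of the kinases were mostly higher. Of 13 measured, 10 were called higher and 1 lower in the tRNA-Glu line, against 30.3% of all genes higher and 26.5% lower, with a median log2 difference of 0.59 against 0.04 over all genes. For the tRNA-Arg line the counts were 9 higher and 1 lower, against 20.4% of all genes higher and 22.2% lower, with a median of 0.57 against -0.02 over all genes. HMMR, a spindle-pole protein, was 2.71-fold higher in the tRNA-Glu line and 2.70-fold higher in the tRNA-Arg line. TACC3, an AURKA substrate on spindle microtubules, was 2.28-fold higher in the tRNA-Glu line and 1.80-fold higher in the tRNA-Arg line. SGO2, a protector of centromeric cohesion, was 1.62-fold higher in the tRNA-Glu line and 2.16-fold higher in the tRNA-Arg line. RACGAP1, of the central spindle, was 1.66-fold higher in the tRNA-Glu line and 1.82-fold higher in the tRNA-Arg line. The gene called lower in both lines was NEDD1, which recruits gamma-tubulin to the spindle: it was 3.32-fold lower in the tRNA-Glu line (limma adjusted p = 5.42e-05) and 1.58-fold lower in the tRNA-Arg line (limma adjusted p = 0.00319).

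A further list held genes that control transcription of the kinases. Of 22 listed, 20 were measured, and 4 were called higher and 8 lower in the tRNA-Glu line, against 30.3% of all genes higher and 26.5% lower, with a median log2 difference of -0.22. The tRNA-Arg line had 4 called higher and 5 lower, against 20.4% of all genes higher and 22.2% lower, with a median of -0.09, which was 0.03 with median scaling. FOXM1, an activator of late cell cycle genes, measured 10.09 and 10.13 in the tRNA-Glu line, 9.72 and 9.81 in the tRNA-Arg line, and 8.48 and 8.67 in control cells. It was 2.90-fold higher in the tRNA-Glu line (limma adjusted p = 5.69e-05) and 2.29-fold higher in the tRNA-Arg line (limma adjusted p = 0.000228). The pocket proteins RB1, RBL1 and RBL2 repress cell cycle genes, and each was called lower in both lines with quantile normalization. With median scaling the tRNA-Arg calls of RB1 and RBL1 were lost (limma adjusted p = 0.257 and 0.123). RB1 was 3.08-fold lower in the tRNA-Glu line and 1.30-fold lower in the tRNA-Arg line. RBL2, a subunit of the DREAM repressor, was 2.19-fold lower in the tRNA-Glu line and 1.52-fold lower in the tRNA-Arg line, and RBL1 was 2.03-fold and 1.38-fold lower. NFYA, a subunit of the CCAAT-binding factor NF-Y, was 1.93-fold lower in the tRNA-Glu line and was not called in the tRNA-Arg line, at a log2 difference of -0.19 (limma adjusted p = 0.221). Its partner subunits did not fall with it. In the tRNA-Glu line NFYC was called higher (0.35, limma adjusted p = 0.0271), a call lost with median scaling (limma adjusted p = 0.126). NFYB was not called there (0.24, limma adjusted p = 0.372), and neither was called in the tRNA-Arg line. MYBL2 was detected on 1 of 6 arrays, with a highest intensity of 55.8, and was not tested.

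Genes of the G1/S transition, which peak before mitosis, were mostly called lower with quantile normalization. With median scaling fewer were called, though the median differences stayed negative. Of 18 measured, 2 were called higher and 12 lower in the tRNA-Glu line, against 30.3% of all genes higher and 26.5% lower, with a median log2 difference of -0.41. The tRNA-Arg line had 1 called higher and 12 lower, against 20.4% of all genes higher and 22.2% lower, with a median of -0.44. With median scaling 6 of 18 were called lower in the tRNA-Glu line and 3 of 18 in the tRNA-Arg line, and the medians were -0.30 and -0.32. Over all 18106 probes, median scaling called 2951 lower in the tRNA-Glu line and 1426 in the tRNA-Arg line. The medians over all probes were then 0.05 and 0.04. RRM2, which makes deoxyribonucleotides, was 2.97-fold lower in the tRNA-Glu line and 1.41-fold lower in the tRNA-Arg line, where the call was lost with median scaling (limma adjusted p = 0.149). UNG, a uracil-DNA glycosylase, was 2.01-fold lower in the tRNA-Glu line and 1.83-fold lower in the tRNA-Arg line. SLBP, which binds histone mRNA in S phase, was 1.81-fold lower in the tRNA-Glu line and 1.68-fold lower in the tRNA-Arg line. With median scaling, fewer genes of all these lists together were called lower: 20 instead of 32 in the tRNA-Glu line and 5 instead of 22 in the tRNA-Arg line.

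**Figure D5:**
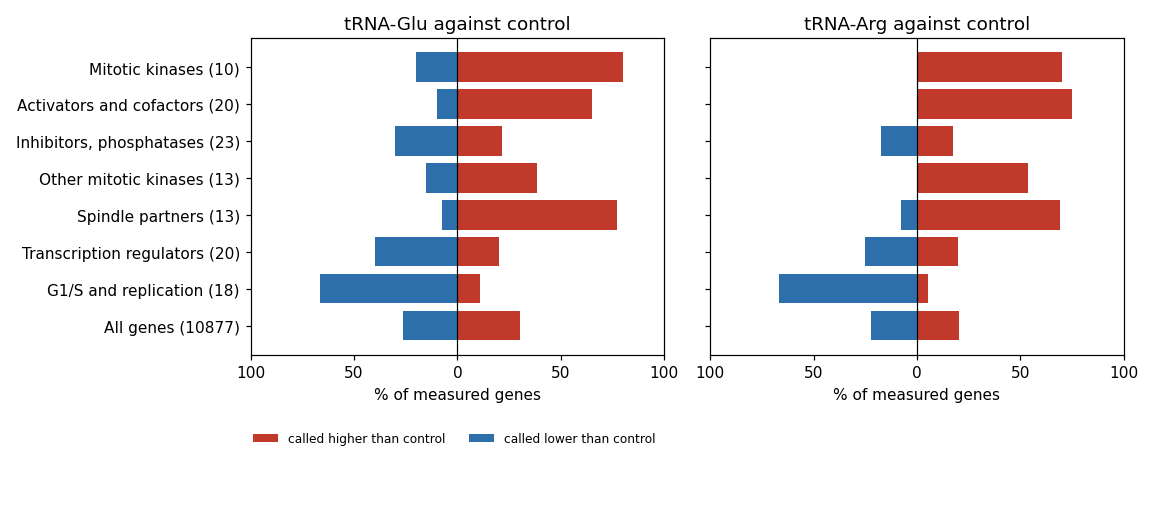
Percentage of measured genes called higher and called lower for the kinases, each list of partners and all genes, in the tRNA-Glu line and in the tRNA-Arg line against control cells. Activators and spindle substrates are mostly called higher, with 13 of 20 and 10 of 13 in the tRNA-Glu line. Of the G1/S genes, 12 of 18 are called lower there with quantile normalization. With median scaling, which is not drawn, 6 of 18 were called lower.

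The genes whose pattern over the 6 arrays was most like the mean of the 10 kinases were found by the root mean square distance of their centred log2 values, over 10867 genes. The nearest were HYLS1 at 0.0439, TRAF1 at 0.0541, LAYN at 0.0550, NDC80 at 0.0578 and CD24 at 0.0595. NDC80 encodes a core kinetochore protein. Among the kinases themselves, TTK lay nearest to the mean at 0.0595, and PLK1 and CDK1 lay farthest at 0.809 and 0.711. The mean therefore mixes kinases that rose strongly with CDK1 and MASTL, and a likeness to it is not a likeness to every kinase.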

How the data were processed

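Total RNA of the 6 samples was measured on Illumina BeadChips. The authors deposited, per the file headers, bead intensity values without normalization and a detection p-value beside each, for 47323 probes an array. Per the submitters' processing notes lumi was used, version not given. The authors also deposited processed intensity values, used as an alternative, and a table of fold changes per gene symbol, read here as log2 although the authors state neither base nor direction.

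From the non-normalized intensities, background was corrected with limma's neqc (limma 3.58.1, R 4.3.3, from the detection p-values, offset 16), followed by quantile normalization and log2. The filter kept 18106 probes whose detection p was below 0.01 on 2 or more arrays. Symbols came from the platform annotation, updated through Entrez identifiers with a RefSeq table: 30113 probes had 1 gene, 8 had several and 17202 had none.

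limma (lmFit, eBayes) was fitted once over the 3 groups, with 3 residual and 4.08 prior degrees of freedom. P-values were adjusted by Benjamini-Hochberg over the 18106 probes of each comparison, with calls at an adjusted p under 0.05. A gene was read from its brightest probe. The kinases, partner lists and rules were chosen with earlier results of these data known. Named are all kinase probes, and of each partner list genes among the 5 smallest p-values against control, plus PLK4, MELK, PBK, FOXM1, MYBL2, CCNB1, TPX2, INCENP and WEE1. MAD2L1, ARPP19, ENSA, NFYB and NFYC were added after their values were seen. Promoter windows are RefSeq's (GRCh38.p14). The number of arrays limits the precision.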

Additional observations from a re-analysis of the deposited data

Results flagged for a closer look

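For 5 kinase probes the change from control differed between the lines, by limma's test of the difference itself, tRNA-Glu minus tRNA-Arg. The log2 differences were -0.36 for BUB1, -0.54 for the dimmer NEK2 probe, -0.42 for the brighter and -0.57 for the dimmer CDK1 probe, and 0.48 for the brighter PKMYT1 probe. That is 1 of 15 kinase probes called higher and 4 lower, where 18% of all probes were called higher and 17.8% lower. With median scaling the calls of BUB1, the brighter CDK1 probe and the brighter PKMYT1 probe were lost. The groups of 2 arrays were too small to look for single arrays that stand apart.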

How the results depend on the processing

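The number of kinase genes called higher was 8 in the tRNA-Glu line and 7 in the tRNA-Arg line under all 15 alternatives, and no direction of a called kinase reversed. With median scaling, 1 kinase probe instead of 3 and 0 genes instead of 2 were called lower in the tRNA-Glu line (limma, 0 at an unadjusted p under 0.05). Between the lines, median scaling called 0 probes higher and 2 lower, and 0 genes higher and 0 lower (limma, 1 gene each way and 1 probe higher at an unadjusted p under 0.05). Over the partner lists it called 20 genes lower in the tRNA-Glu line and 5 lower in the tRNA-Arg line, and 3 higher and 16 lower between the lines. Over all probes it called 3111 higher and 2951 lower in the tRNA-Glu line, against 4839 and 4888, then 1970 and 1426 in the tRNA-Arg line, against 3480 and 3698, and 689 and 1413 between the lines, against 3263 and 3220. With no filter on dim probes, 1 kinase gene was called lower in the tRNA-Glu line, and 9 partner genes were higher between the lines. The cause was not tested.

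Without 1 replicate at a time, the kinase genes called lower in the tRNA-Glu line numbered 1 to 2. Between the lines, 0 to 1 genes and 0 to 1 probes were higher, and 0 to 2 genes and 2 to 4 probes lower. Partner genes between the lines numbered 6 to 8 higher and 17 to 23 lower, and 14 to 19 were lower in the tRNA-Arg line. A left-out array leaves 1 in its group, assumed to vary like the others.

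Replicate numbers did not pair the samples: differences between replicates correlated across probes at -0.0224 for tRNA-Glu with control, 0.0308 for tRNA-Arg with control and -0.0138 between the lines, and no label gives the numbers a shared batch. With the replicate block, 8 kinase genes were called higher and 2 lower in the tRNA-Glu line, 7 higher in the tRNA-Arg line, and 1 higher and 2 lower between the lines. The block also called the dimmer PKMYT1 probe in the tRNA-Glu line (0.48).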
